A study of Mus musculus with 12 samples.

Results

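The conjugation enzymes of the UGT, SULT and GST families were followed through hepatocyte input RNA and the RNA recovered with an antibody against CNOT6L. Members were all probe sets whose gene symbol begins with Ugt1 to Ugt3, with Sult and a digit, or with Gst, a letter and a digit. This rule found 39 of the 15780 probe sets with a gene symbol, 8 UGT, 12 SULT and 19 GST genes, each with 1 probe set. The UGT genes found were of Ugt2 and Ugt3 only, so no statement on UGT genes below covers the Ugt1 family. CNOT6L is one of the enzymes with which the CCR4-NOT complex trims poly(A) tails, a step that starts the decay of many mRNAs. The material was primary hepatocytes of 8-week-old male C57BL/6J mice, hybridised to 12 Affymetrix arrays in 4 groups of 3: IP from wild type (WT), IP from Cnot6l knockout (KO), KO input and WT input. Every preparation was split into an input part and an IP part, and the KO cells were the negative control of the precipitation. The titles number the replicates 1 to 3 in each group and call them biological. The labels do not say more on whether a number stands for 1 animal, or on what arrays with the same number share across genotypes; the p-values treat the numbers as separate preparations. All levels are log2 values as deposited, and all differences are differences of log2 values.

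These enzymes attach a polar group to drugs, hormones, bile pigments and reactive metabolites so that they can be excreted. UDP-glucuronosyltransferases (UGT) sit in the endoplasmic reticulum membrane and transfer glucuronic acid from UDP-glucuronic acid. Sulfotransferases (SULT) are cytosolic and transfer a sulfonate group from the donor PAPS to hydroxyl and amino groups. Glutathione S-transferases (GST) join glutathione to electrophiles such as lipid peroxidation products and epoxides. Hepatocytes are a main site of all 3 reactions, and several of the genes, GST genes above all, are known targets of xenobiotic receptors and of the oxidative stress factor NRF2.

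The targeted gene did not separate the genotypes. Cnot6l had log2 levels of 9.12, 9.23 and 9.34 in KO inputs, against 8.44, 9.51 and 9.11 in WT inputs (numbers 1, 2 and 3). The difference was 0.21 with an adjusted p of 1 (limma, over all 9496 genes tested). Its levels in the IPs were 9.11, 10.65 and 8.85 in WT, against 9.29, 10.63 and 9.46 in KO (difference -0.26, adjusted p = 1). The deleted part of Cnot6l and the position of the probes were not analysed here, so WT and KO below are the labels of the arrays and every direction between genotypes rests on them. Array medians lay between 6.31 and 6.45. Bacterial poly-A control transcripts were 5.11 higher in IPs than in their matched inputs on average, with 4.47 to 5.99 over 6 preparations. All 9 hepatocyte markers on the array exceeded the filter used for testing, a mean level of 5.57 over the 12 arrays. In RNA from whole cultures, fewer cells of a type and less RNA per cell cannot be told apart.

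That filter left 28 members for testing, 6 UGT, 5 SULT and 17 GST genes. The tested Gstm genes, Gstm1 to Gstm7, lie together on chromosome 3, and the Ugt2 genes lie on chromosome 5 with Sult1b1, Sult1d1 and Sult1e1. Neighbouring Gstm and Ugt2b genes have near-identical stretches and may share probes, and probe specificity was not tested. RefSeq (GRCm38.p6) promoter windows of 300 bases across the transcription start were found for 35 of the 39 members. The first pair of windows printed here belongs to Gstm3 and Ugt2b1, the GST and the UGT gene whose input level differed most between replicate numbers. The other windows, of Gsta3, Gstm5 and Gstm7, are those of the only members that contain TGACNNNGC, the core of the antioxidant response element through which NRF2 acts, on either strand. Capitals mark that match.
Gstm3, chr3:107969125-107969424, minus strand: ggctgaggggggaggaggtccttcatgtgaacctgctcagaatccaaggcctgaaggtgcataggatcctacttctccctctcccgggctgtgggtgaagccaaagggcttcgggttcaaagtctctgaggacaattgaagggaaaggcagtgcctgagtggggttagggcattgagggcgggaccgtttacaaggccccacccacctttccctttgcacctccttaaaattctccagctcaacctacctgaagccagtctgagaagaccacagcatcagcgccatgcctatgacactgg
Ugt2b1, chr5:86926454-86926753, minus strand: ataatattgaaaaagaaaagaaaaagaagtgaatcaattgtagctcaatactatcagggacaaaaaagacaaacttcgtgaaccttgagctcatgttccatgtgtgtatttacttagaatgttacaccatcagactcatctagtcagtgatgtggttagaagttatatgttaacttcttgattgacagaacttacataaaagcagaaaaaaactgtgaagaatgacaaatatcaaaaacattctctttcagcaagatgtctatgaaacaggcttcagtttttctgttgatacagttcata
Gsta3, chr1:21240335-21240634, plus strand: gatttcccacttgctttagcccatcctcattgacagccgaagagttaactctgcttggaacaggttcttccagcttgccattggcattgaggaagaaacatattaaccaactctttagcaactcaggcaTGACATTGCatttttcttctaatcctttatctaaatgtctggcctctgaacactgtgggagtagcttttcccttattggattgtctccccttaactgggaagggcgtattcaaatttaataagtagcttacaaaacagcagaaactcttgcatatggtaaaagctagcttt
Gstm5, chr3:107895604-107895903, plus strand: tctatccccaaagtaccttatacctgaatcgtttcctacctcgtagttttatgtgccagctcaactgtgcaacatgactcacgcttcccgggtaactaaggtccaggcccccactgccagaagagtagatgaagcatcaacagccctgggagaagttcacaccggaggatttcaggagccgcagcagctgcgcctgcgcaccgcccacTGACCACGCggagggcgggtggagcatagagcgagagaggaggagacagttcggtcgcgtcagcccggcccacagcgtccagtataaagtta
Gstm7, chr3:107931565-107931864, minus strand: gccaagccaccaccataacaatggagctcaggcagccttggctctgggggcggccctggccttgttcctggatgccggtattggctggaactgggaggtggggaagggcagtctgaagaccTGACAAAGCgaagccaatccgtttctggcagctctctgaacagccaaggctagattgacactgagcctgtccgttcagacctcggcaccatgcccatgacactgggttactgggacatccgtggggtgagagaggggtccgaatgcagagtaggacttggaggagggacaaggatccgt
Matches to TGACNNNGC were present in 3 of the 46 windows of members (6.52%), against 12.4% of all 32851 windows. The 3 genes with a match were GST genes, of 17 GST genes with a window. The core of the xenobiotic response element, GCGTG, was in 19.6% of the members' windows, against 32.4% of all windows. GTTAAT, one arm of the palindromic site of the hepatocyte factor HNF1, was in 8.7% of the members' windows, against 7.1% of all. TATAAA was in 17.4% of the members' windows, against 13.6% of all. The full HNF1 site, which contains that arm, was in 0 of the members' windows, against 0.00913% of all windows. A match is a stretch of letters only, and these 5 motifs were chosen after the levels had been seen.

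The levels of the members differed far more between replicate numbers than between genotypes or between IP and input. Of the variation of a member over the 12 arrays, the number accounted for a median of 71.5%, against 47.5% over all genes tested. The number held over 50% of the variation in 19 of 28 members (67.9%), against 47.2% of all genes. The median share was 71.7% for UGT, 76.2% for SULT and 69.0% for GST genes. The genotype accounted for a median of 1.70% of a member's variation, against 2.08% over all genes. The fraction, IP or input, accounted for 8.07%, against 12.9% over all genes. The number has more levels than the genotype or the fraction, so these shares are not on equal terms. In the 6 inputs, 23 of 28 members (82.1%) differed between numbers at an adjusted p under 0.05 (limma F test with genotype in the model), against 68.8% of all genes tested. In the 6 IPs, 13 of 28 members (46.4%) did, against 24.7% of all genes. By class these were 5 of 6 UGT, 4 of 5 SULT and 14 of 17 GST genes in the inputs, and 3 UGT, 1 SULT and 9 GST genes in the IPs. This F test was chosen after the pattern had been seen.

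**Figure D1:**
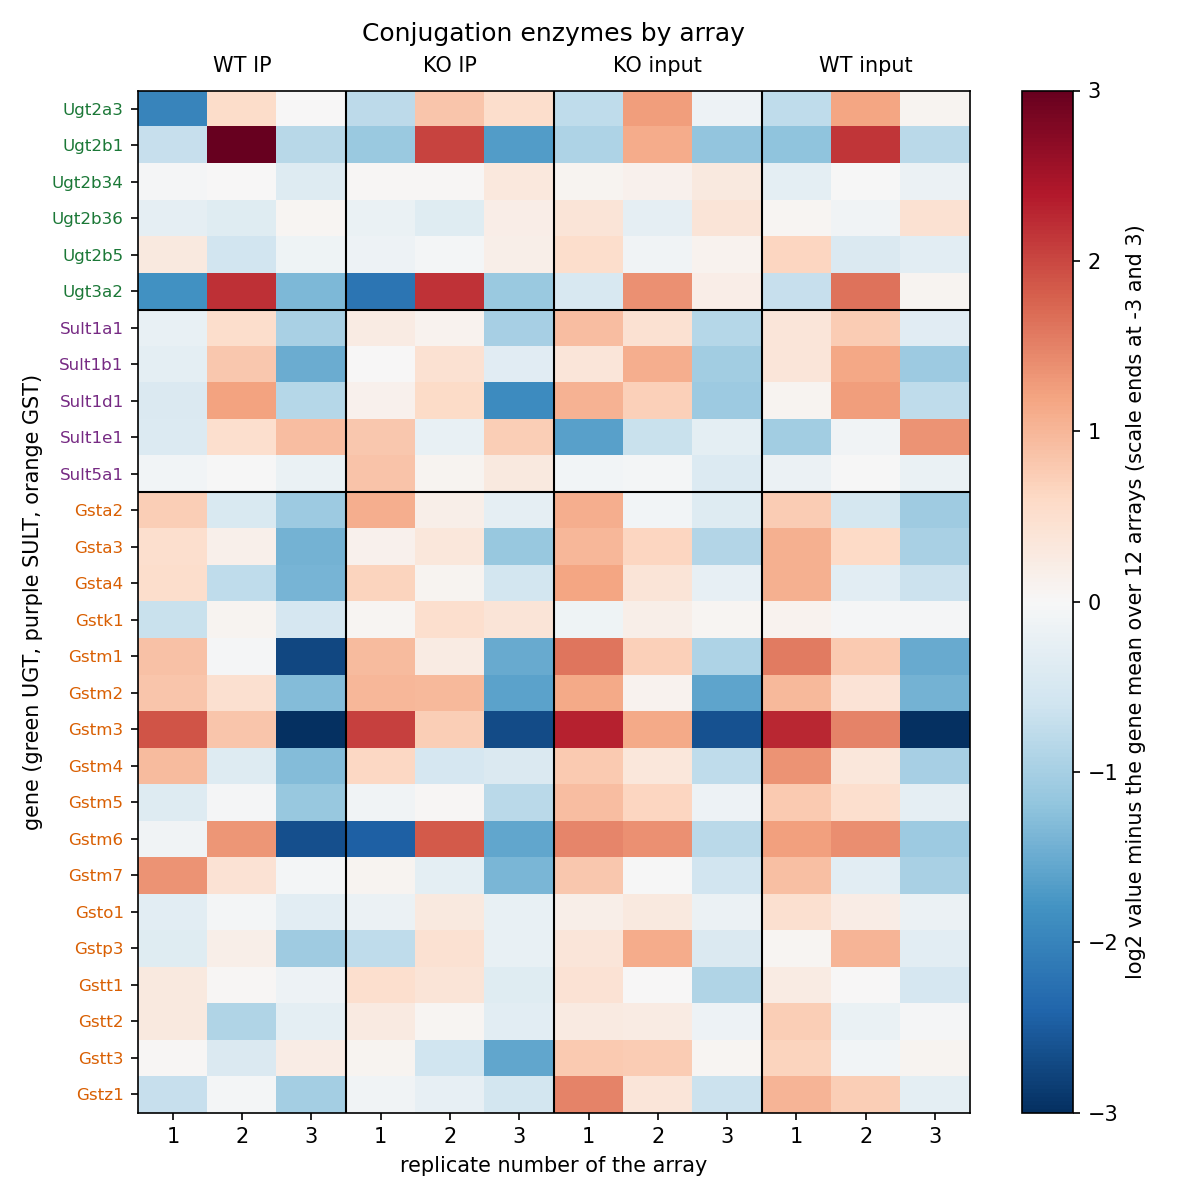
Level of each tested member in each of the 12 arrays, as the difference in log2 units from that member's mean over all arrays (colour scale ends at -3 and 3), with columns by group (WT IP, KO IP, KO input, WT input) and replicate number and rows by class. Most GST rows are lowest in number 3 of each group, and Ugt2b1 and Ugt3a2 are highest in number 2.

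The GST genes shared a direction. Of 17 tested GST genes, 13 had their highest mean level over the 4 arrays of a number in number 1 (76.5%, against 32.9% of all genes) and 15 their lowest in number 3 (88.2%, against 45.1%). Gstm3, a mu-class enzyme, had log2 levels of 12.56, 11.51 and 6.94 in WT IP, 12.72, 11.41 and 7.98 in KO IP, 12.97, 11.81 and 8.06 in KO inputs, and 12.93, 12.17 and 6.97 in WT inputs. In all 4 groups number 3 lay far below the other arrays. The number accounted for 97.5% of its variation, and its input means were 12.95, 11.99 and 7.51 in numbers 1, 2 and 3, a range of 5.43 (F test adjusted p = 0.000481). Gstm1, an abundant liver mu-class enzyme, had levels of 13.26, 12.36 and 9.65 in WT IP, 13.33, 12.62 and 10.87 in KO IP, 14.00, 13.09 and 11.47 in KO inputs, and 13.93, 13.17 and 10.86 in WT inputs. The order of the numbers was the same in each group. Gstm2 gave 11.67, 11.31 and 9.53 in WT IP, 11.83, 11.81 and 9.22 in KO IP, 11.97, 10.95 and 9.27 in KO inputs, and 11.82, 11.25 and 9.43 in WT inputs. Here the number held 96.5% of the variation, close to the share in Gstm3.

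The alpha class had the same order of numbers in the inputs. Gsta3, which detoxifies aflatoxin epoxide in the mouse, had levels of 10.68, 10.35 and 8.77 in WT IP, 10.33, 10.52 and 9.05 in KO IP, 11.19, 10.83 and 9.32 in KO inputs, and 11.25, 10.78 and 9.22 in WT inputs. Number 3 was the lowest array in each group, and the number held 89.2% of the variation. Gsta2 had levels of 12.78, 11.58 and 10.94 in WT IP, 13.13, 12.22 and 11.77 in KO IP, 13.13, 11.96 and 11.64 in KO inputs, and 12.79, 11.52 and 10.96 in WT inputs. Gsta4, which conjugates the lipid peroxidation product 4-hydroxynonenal, had 11.20, 9.91 and 9.28 in WT IP, 11.34, 10.77 and 10.12 in KO IP, 11.88, 11.07 and 10.44 in KO inputs, and 11.76, 10.38 and 10.05 in WT inputs. In both genes number 1 was highest and number 3 lowest in every group. Gstt1, a theta-class enzyme that acts on small halogenated compounds, followed with 11.43, 11.16 and 10.97 in WT IP, 11.62, 11.50 and 10.76 in KO IP, 11.57, 11.14 and 10.22 in KO inputs, and 11.37, 11.12 and 10.62 in WT inputs.

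Members of the UGT and SULT families more often had their highest mean in number 2, though not all of them in every group. Of 6 tested UGT genes, 4 had their highest mean there (66.7%, against 35.5% of all genes), and of 5 SULT genes 3 did (60%). These include Ugt2b34, whose input means ranged by only 0.17 and which was highest in number 2 in 2 of 4 groups. Sult1a1 was highest there in 2 groups and Sult1d1 in 3. The same number was highest in all 4 groups in 3 of 6 UGT and 1 of 5 SULT genes, against 39.5% of all genes. Ugt2b1, whose rat counterpart glucuronidates bisphenol A, had levels of 7.02, 10.87 and 6.88 in WT IP, 6.59, 9.74 and 6.04 in KO IP, 6.80, 8.84 and 6.53 in KO inputs, and 6.52, 9.87 and 6.92 in WT inputs. Number 2 stood above the other 2 arrays in each group by over 2 units. Its input means were 6.66, 9.36 and 6.73 in numbers 1, 2 and 3 (F test adjusted p = 0.00111). Ugt3a2, whose human counterpart uses sugars other than glucuronic acid, had levels of 6.87, 10.87 and 7.34 in WT IP, 6.50, 10.86 and 7.57 in KO IP, 8.20, 10.06 and 8.88 in KO inputs, and 7.99, 10.31 and 8.76 in WT inputs. Number 2 was again highest in each group, and numbers 1 and 3 were lower in the IPs than in the inputs. Ugt2a3, whose human counterpart acts on bile acids, had 4.17, 6.72 and 6.19 in WT IP, 5.37, 6.99 and 6.69 in KO IP, 5.41, 7.42 and 6.01 in KO inputs, and 5.41, 7.36 and 6.24 in WT inputs. It peaked in number 2 and was lowest in number 1.

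Among sulfotransferases, Sult1b1, which acts on thyroid hormones, had levels of 5.39, 6.49 and 4.21 in WT IP, 5.70, 6.14 and 5.35 in KO IP, 6.06, 6.78 and 4.65 in KO inputs, and 6.05, 6.85 and 4.61 in WT inputs. Input means of 6.06, 6.82 and 4.63 in numbers 1, 2 and 3 gave an F test adjusted p of 0.000481. Sult1d1, which sulfonates catecholamines in the mouse, had 7.96, 9.61 and 7.53 in WT IP, 8.53, 8.96 and 6.50 in KO IP, 9.45, 9.11 and 7.31 in KO inputs, and 8.48, 9.65 and 7.64 in WT inputs. Sult1a1, the main phenol sulfotransferase, had 9.30, 10.06 and 8.56 in WT IP, 9.77, 9.64 and 8.53 in KO IP, 10.46, 9.98 and 8.67 in KO inputs, and 9.90, 10.30 and 9.19 in WT inputs. In all 3 genes number 3 was the lowest array of each group, while numbers 1 and 2 changed places between groups in Sult1d1 and Sult1a1. Sult1e1, the estrogen sulfotransferase, ran the other way in the inputs, with 4.41, 5.37 and 5.74 in KO and 4.99, 5.93 and 7.39 in WT.

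**Figure D2:**
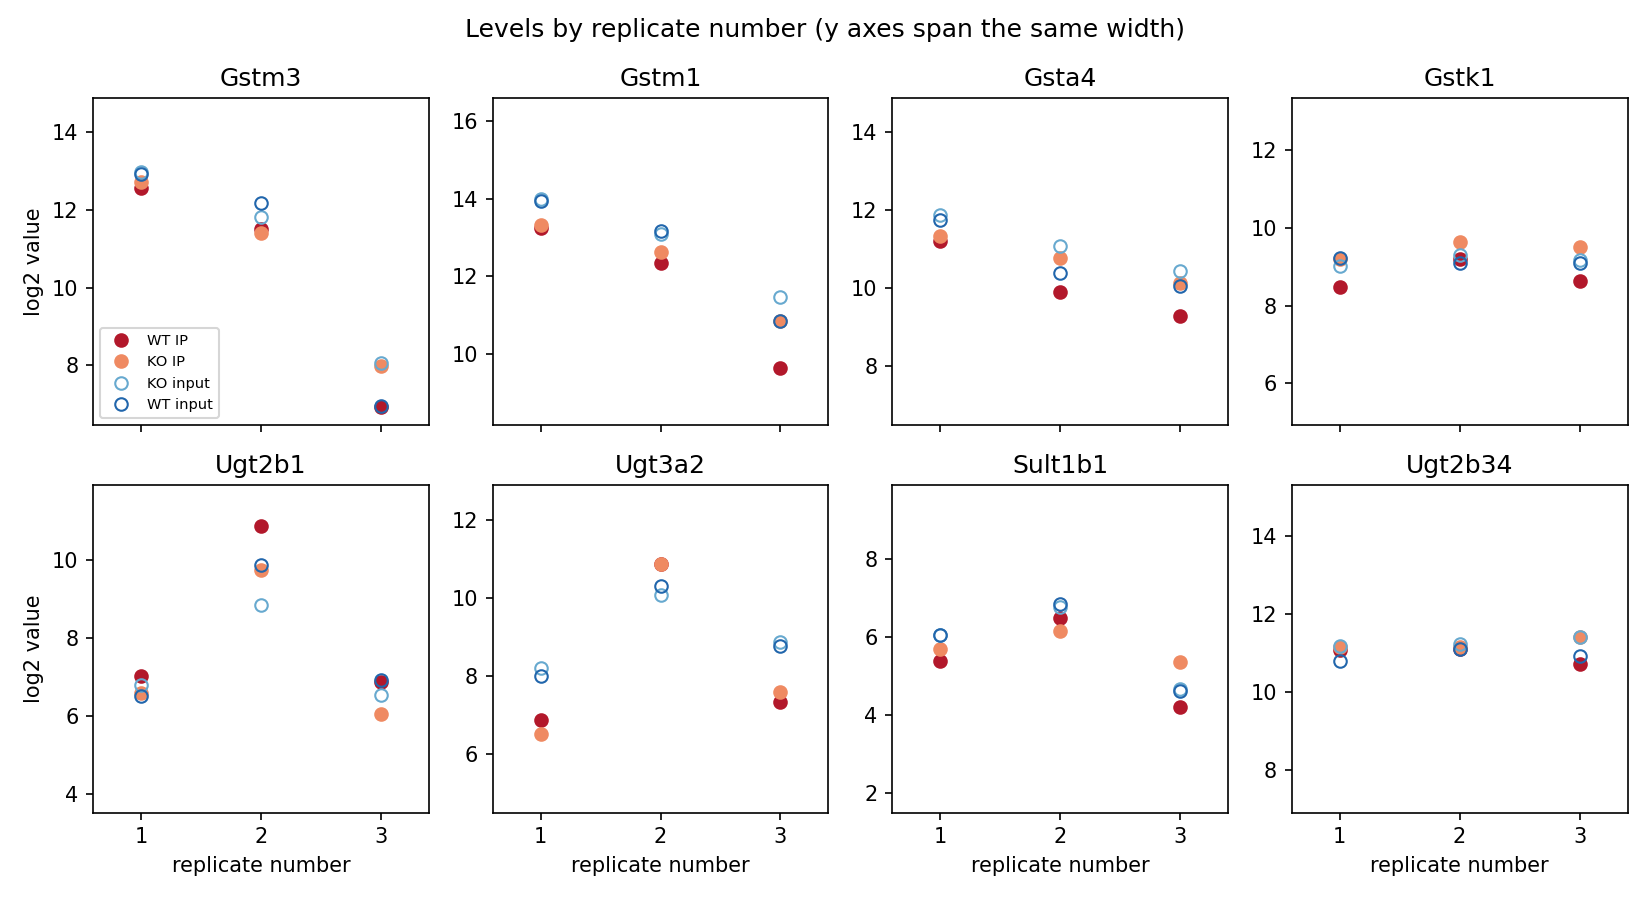
Log2 level of 8 members by replicate number, with 1 point per array, filled for WT IP and KO IP and open for KO input and WT input. Gstm3 is lowest in number 3 and Ugt2b1 and Ugt3a2 are highest in number 2 in all 4 groups, while Ugt2b34 stays between 10.72 and 11.41.

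Some members varied little with the number. Ugt2b34 had levels of 11.07, 11.10 and 10.72 in WT IP, 11.15, 11.14 and 11.41 in KO IP, 11.19, 11.23 and 11.40 in KO inputs, and 10.80, 11.09 and 10.91 in WT inputs. The number held 3.56% of its variation and the genotype 57.4%. The number held 12.1% of the variation of Sult5a1, 19.7% of that of Gstk1 and 22.0% of that of Gstt3. Other members fell between these and Gstm3. Ugt2b36 had a narrow range, 11.51 to 12.35 over all 12 arrays, yet the number held 60.6% of its variation and number 2 was its lowest array in each group. Among them, Gstm4 had input means of 10.13, 9.40 and 8.19 in numbers 1, 2 and 3, and Gstp3 of 10.15, 11.01 and 9.57.

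**Figure D3:**
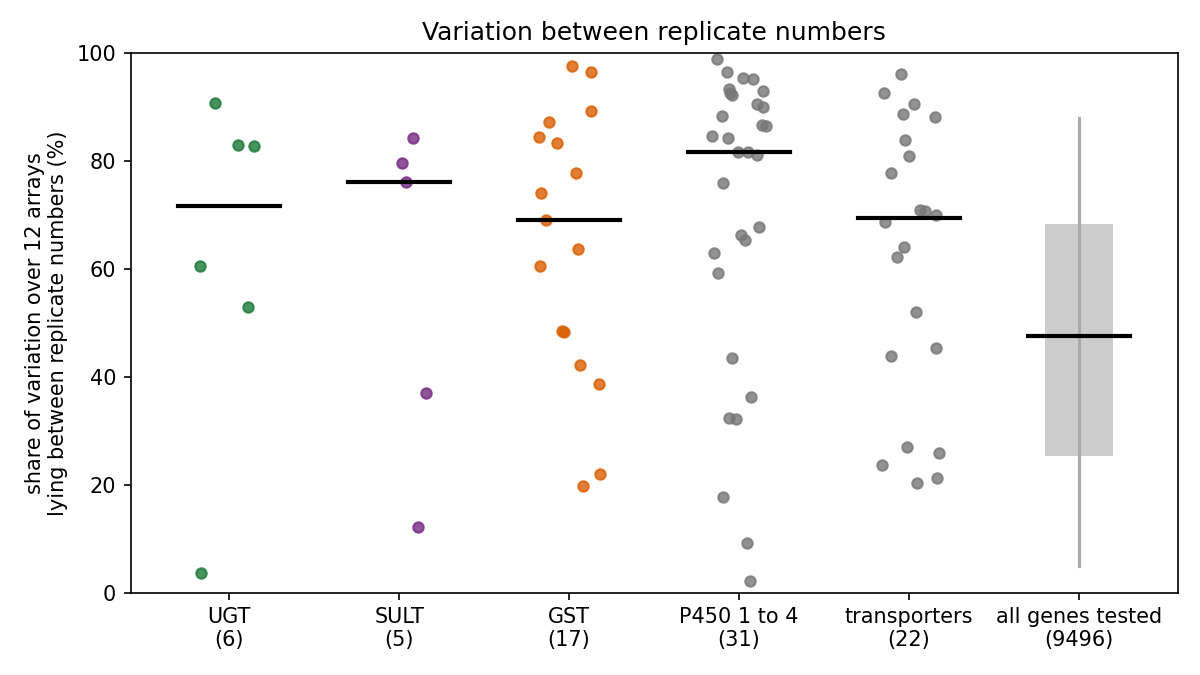
Share (percent) of each gene's variation over 12 arrays that lies between replicate numbers, with 1 point per tested gene and a bar at the median, for UGT, SULT, GST, cytochrome P450 and transporter genes; for all genes tested the box spans the 25th to 75th and the line the 5th to 95th percentile. Among the members Gstm3 is highest at 97.5% and Ugt2b34 lowest at 3.56%, and the median of all genes is 47.5%.

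A range of input means over 2 log2 units was seen in 7 of 28 members (25%), against 5.2% of all genes. The same number was highest in all 4 groups in 14 of 28 members (50%), against 39.5% of all genes. Neighbouring pathway families also followed the number. The 31 tested cytochrome P450 genes of families 1 to 4 had a median share of 81.7%, and 21 of them were highest in number 2, against 35.5% of all genes. The 22 tested transporters had a median share of 69.4%, and 14 were highest in number 3, against 2998 of all 9496 genes. Number 1 was highest in 32.9% of all genes, and in all 13 tested genes of the list of xenobiotic sensors and NRF2 genes. Within it, the NRF2 target Nqo1, a quinone reductase, had input means of 9.69, 7.84 and 7.55 in numbers 1, 2 and 3, and Txnrd1, thioredoxin reductase, of 9.49, 8.17 and 7.13.

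Other measures moved with the number as well. The excess of the 3′ over the 5′ probe set of Gapdh, a measure of RNA integrity, was widest in number 3: 2.34 in WT IP, 1.93 in KO IP, 0.27 in the KO input and 0.40 in the WT input. It was 0.84 to 1.14 in the other IPs and -0.01 to 0.07 in the other inputs. In each of the 6 preparations this excess was wider in the IP than in its input, by 0.85 to 1.95. The mean of the 9 hepatocyte markers was 10.72, 12.06 and 10.53 in WT IP, 10.77, 11.67 and 10.26 in KO IP, 11.35, 11.98 and 10.62 in KO inputs, and 11.19, 12.48 and 10.61 in WT inputs, highest in number 2. The markers moved unequally. Between numbers the input means ranged by 3.95 for Cyp2e1, 3.26 for Tat and 3.08 for Fabp1, but by 0.10 for Ttr, 0.19 for Apoa1 and 0.30 for Alb. The mean of 6 stellate cell markers, 4 of which exceeded the filter, was 5.64, 6.35 and 6.51 in WT IP, 5.88, 5.55 and 6.53 in KO IP, 5.26, 5.37 and 6.81 in KO inputs, and 5.41, 6.03 and 6.74 in WT inputs. The stellate list did not move as one. In numbers 1, 2 and 3 the input means were 5.09, 5.30 and 9.66 for the collagen gene Col3a1 and 6.36, 7.42 and 9.60 for the matrix proteoglycan gene Dcn. They were 6.62, 7.80 and 6.24 for Reln and 5.84, 5.76 and 5.88 for Des. Below the filter lay Lrat with 3.65, 3.68 and 4.57, and Col1a1 with 4.46, 4.27 and 4.73. The mean of 5 cholangiocyte markers, 2 of which exceeded the filter, was also highest in number 3 of each group. It was 5.18, 5.69 and 6.05 in WT inputs, and 5.29, 5.23 and 5.85 in KO inputs. The endothelial mean was highest in number 3 in both inputs and in KO IP, and in number 2 in WT IP. The Kupffer cell mean was highest in number 1 of each group, and the lymphocyte mean in different numbers in different groups. The part of RNA integrity and of cell makeup in the pattern by number was not tested. With number 3 left out, 0 members and 0 of all 9496 genes were called in the 5 comparisons below, so that fit does not bear on the members.

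In WT cells, 0 of 28 members differed between IP and input at an adjusted p under 0.05, with all 12 arrays in 1 limma fit, against 0.105% of all genes. In that fit, which does not pair an IP with its input, 0 members had an unadjusted p under 0.05, against 4.58% of all genes higher and 6.03% lower. The median difference was -0.21 for UGT, -0.22 for SULT and -0.47 for GST genes, against -0.11 over all genes. The values of all probe sets spread less in the IP arrays (SD 2.29 to 2.42 in WT, 2.19 to 2.37 in KO) than in the inputs (2.53 to 2.59 and 2.54 to 2.61). The part of this, and of the wider 3′ excess in the IPs, in the IP minus input differences was not tested. A difference below 0 was found in 20 of 28 members, against 58.4% of all genes. With each preparation taken as a block, which compares each IP with its own input, 2 members were lower in WT IP, against 4.61% of all genes, and 0 were higher, against 2.41%. Both are GST genes. Further members had an unadjusted p under 0.05 in the block fit, such as Gstm7 (0.00931, higher), Gstz1 (0.0113, lower) and Gsta4 (0.0128, lower). The share of all genes at that block p was not counted. The count of 0 without the block therefore does not set the members apart from all genes. Without number 2 or without number 3 the block fit called 0 of all 9496 genes, so no gene, member or not, kept its call in those fits. Without number 1 it called 84 genes higher and 145 lower, and 0 members. The 3 arrays of WT IP and of WT input overlapped in all 28 members, while 7.72% of all genes were higher and 7.59% lower without overlap. Overlap takes no account of the pairing either.

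Gstm1 differed by -0.90 (SE 1.05, adjusted p = 0.8), with -0.67, -0.81 and -1.21 in the preparations numbered 1, 2 and 3 and a block adjusted p of 0.0373. All 3 preparations were lower in the IP, while the levels of the groups overlapped. Without number 1 the block adjusted p of Gstm1 was 0.0713. Gstm5, another mu-class enzyme, had levels of 9.63, 9.98 and 8.86 in WT IP, against 10.80, 10.50 and 9.75 in WT inputs. Every IP lay below its own input, while the IP of number 2 exceeded the input of number 3. The difference was -0.86 (SE 0.42, adjusted p = 0.506), with -1.17, -0.53 and -0.89 by preparation and a block adjusted p of 0.0472. Without number 1 this was 0.124. In KO preparations, the negative control, both genes were also lower in every IP. There Gstm1 differed by -0.67, -0.47 and -0.60 (block adjusted p = 0.107) and Gstm5 by -1.03, -0.62 and -0.64 (block adjusted p = 0.065). The WT minus KO difference of these was -0.32 for Gstm1 and -0.10 for Gstm5, and was not called in either fit.

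Other members had larger differences with more spread. Gstz1, the maleylacetoacetate isomerase of tyrosine breakdown, had levels of 7.70, 8.34 and 7.38 in WT IP, against 9.42, 9.13 and 8.11 in WT inputs. The difference was -1.08 (adjusted p = 0.495, block adjusted p = 0.0853). Gstm6 had 8.55, 9.99 and 6.03 in WT IP, against 9.90, 10.07 and 7.57 in WT inputs, a difference of -0.99 (adjusted p = 0.813). In both genes every IP lay below its own input. The largest differences of tested UGT genes were -0.66 in Ugt3a2 (adjusted p = 0.884) and -0.65 in Ugt2a3 (adjusted p = 0.8). Among tested SULT genes they were -0.49 in Sult1a1 (adjusted p = 0.785) and -0.48 in Sult1b1 (adjusted p = 0.852). Gstm7 had the largest difference above 0 among the tested members, at 0.70 (adjusted p = 0.696). Below the filter, where no p was fitted, Sult6b1 was at 0.84 and Sult1c1 at 0.77, and in both every WT IP array exceeded every WT input array. In KO, the negative control, every IP array also exceeded every input array, with differences of 0.36 and 1.27. Their WT input means, 3.06 and 3.43, lay below the 10th percentile of the WT input arrays (3.45 to 3.53). That percentile was 3.77 to 3.90 in the WT IPs. The share of all genes below the filter with such a separation was not counted.

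In KO cells, the negative control of the precipitation, 0 of 28 members differed between IP and input, against 0% of all genes. The median differences were -0.11 for UGT, -0.10 for SULT and -0.38 for GST genes, against -0.21 over all genes. Again 20 of 28 members had a difference below 0, against 65.9% of all genes. The block fit called 1 member lower, Gstt3, against 5.28% of all genes, and 0 higher, against 0.727%. Gstt3, a theta-class enzyme, had levels of 6.28, 5.58 and 4.62 in KO IP, against 6.96, 6.94 and 6.23 in KO inputs. Each IP was below its input, while the highest IP array exceeded the lowest input. Its difference was -1.22 (SE 0.42, unadjusted p = 0.0133, adjusted p = 0.335), with -0.69, -1.36 and -1.61 by preparation and a block adjusted p of 0.0352. In the fit without the block it was the only member with an unadjusted p under 0.05, against 8% of all genes lower and 2.97% higher. With the block further members were under that p, such as Gstm5 (0.00626, lower) and Sult1e1 (0.00791, higher), and the share of all genes was not counted. Without number 1 the block adjusted p of Gstt3 was 0.0609, when 41 of all genes were called lower. Without number 2 or 3 the block fit called 0 of all genes. In WT preparations Gstt3 differed by -0.64, -0.37 and 0.13 (block adjusted p = 0.474).

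Higher levels in KO IP than in KO input without overlap were found in 2 of 28 members, against 5.31% of all genes, and lower levels without overlap in 0 members, against 10.1%. The 2 members are sulfotransferases. Sult1e1 had levels of 6.85, 5.81 and 6.78 in KO IP, against 4.41, 5.37 and 5.74 in KO inputs, a difference of 1.30 (adjusted p = 0.455, block adjusted p = 0.0714). Sult5a1 had 6.87, 6.08 and 6.30 in KO IP, against 5.92, 5.95 and 5.60 in KO inputs, a difference of 0.59 (adjusted p = 0.455). In both, the lowest IP array lay only just above the highest input. Gstm6 had 6.21, 10.51 and 7.10 in KO IP, against 10.14, 10.04 and 7.86 in KO inputs. That difference, -1.40, had an adjusted p of 0.729, and 1 preparation, number 1, contributed -3.92 to it. Ugt3a2 differed by -0.73 (adjusted p = 0.866), Sult1d1 by -0.63 (adjusted p = 0.82) and Ugt2b36 by -0.28 (adjusted p = 0.775).

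**Figure D4:**
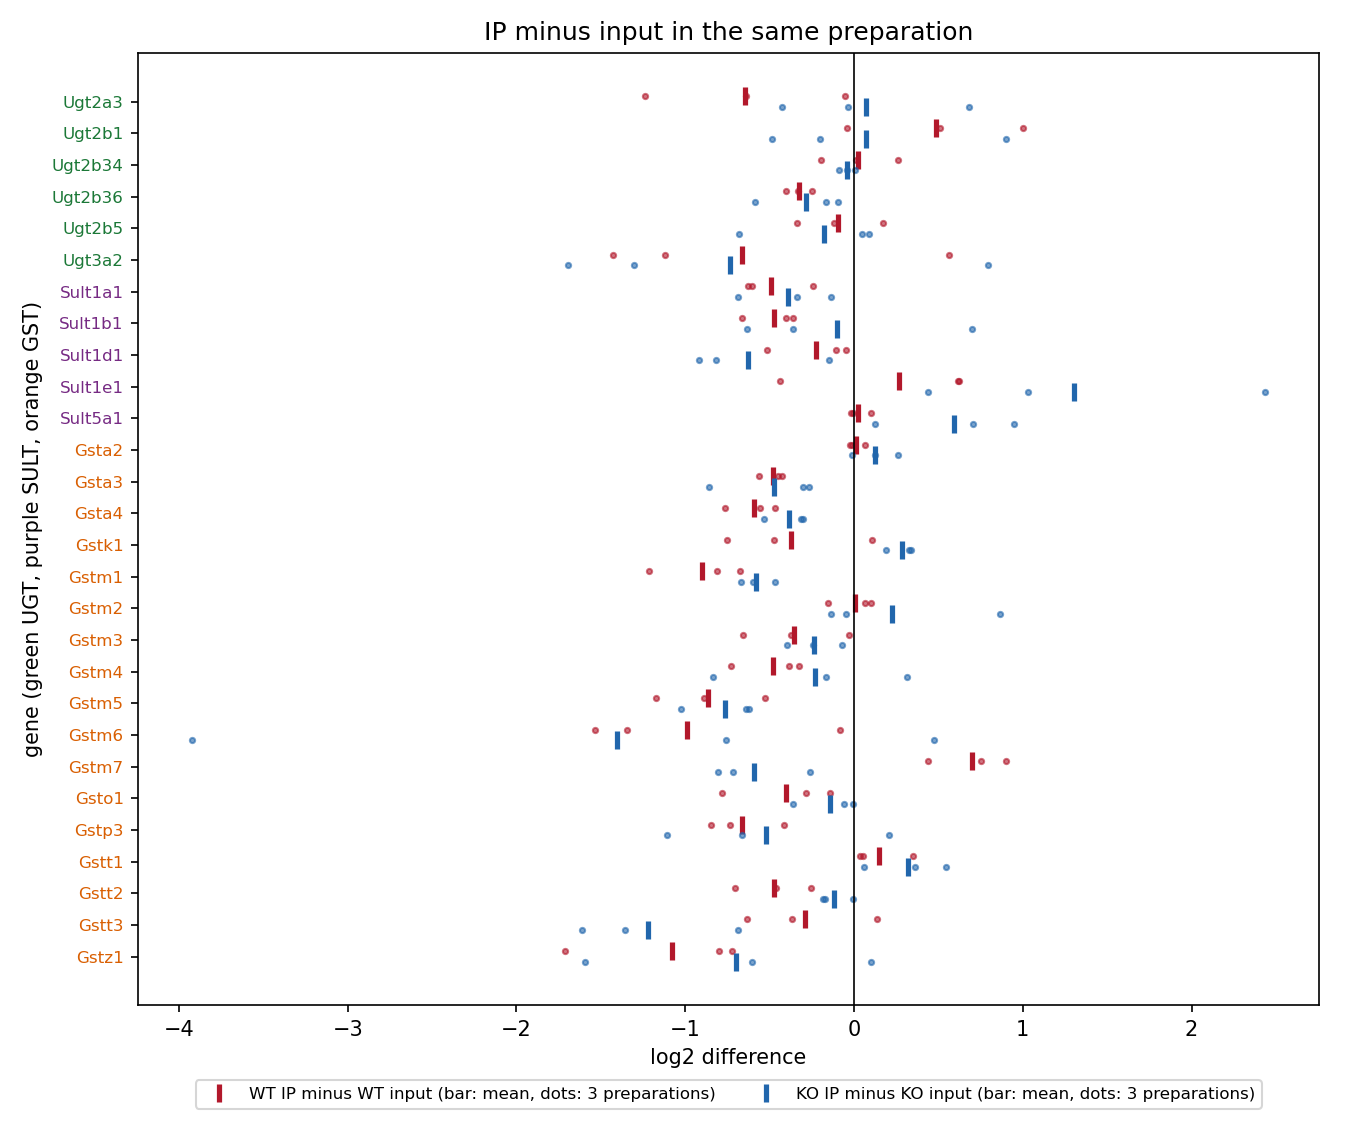
IP minus input difference (log2 units) of each tested member in WT and in KO preparations, with a point per preparation and the mean of 3. Most GST means lie below 0 in both genotypes, and Gstm7 is above 0 in all 3 WT preparations and below 0 in all 3 KO preparations.

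Comparing the IPs of the genotypes asks which transcripts the antibody recovered more in WT than in KO cells. No member passed in the limma fit of all arrays, against 0.253% of all genes. The block on number called 1 member higher in WT IP, Gstm7, against 2.33% of all genes, and 0 members lower, against 0.126%. Gstm7 is a mu-class enzyme, with levels of 7.59, 6.68 and 6.17 in WT IP, against 6.33, 5.96 and 4.87 in KO IP. WT was above KO in each number, by 1.26, 0.72 and 1.30, while the arrays of the groups overlapped. The mean difference was 1.10 (2.14-fold, SE 0.57, adjusted p = 1), with a block adjusted p of 0.0197. Without number 1, 2 or 3 it was 0.0987, 0.131 and 0.268, and those fits called 146, 2 and 29 of all genes higher.

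The inputs of Gstm7 were 7.04, 6.22 and 5.67 in KO, against 7.15, 5.92 and 5.27 in WT (difference 0.20, adjusted p = 1). Its IP minus input difference was 0.44, 0.75 and 0.90 in WT preparations, against -0.72, -0.26 and -0.81 in KO preparations. The WT minus KO difference of these, the interaction, was 1.29 (SE 0.81, 95% interval -0.47 to 3.06, adjusted p = 1, block adjusted p = 0.223). The interaction therefore did not pass in either fit, although the genotypes had opposite signs in every preparation.

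The remaining differences between the IPs did not pass in either fit. Gstk1, a mitochondrial and peroxisomal enzyme, had levels of 8.47, 9.20 and 8.62 in WT IP, against 9.20, 9.63 and 9.52 in KO IP. WT was lower in each number, and the groups overlapped. Its difference was -0.68 (95% interval -1.28 to -0.09, unadjusted p = 0.0281, adjusted p = 0.765). In the fit without the block this was the only unadjusted p under 0.05 among the members. At that p 0.611% of all genes were lower and 4.78% higher. With the number as a block, the unadjusted p was under 0.05 in Gstm7 (0.000245) and Ugt2b1 (0.0346), higher in WT IP. It was also under 0.05 in Gstk1 (0.00586), Gsta2 (0.00602), Gsta4 (0.0127), Sult5a1 (0.0349) and Ugt2a3 (0.0361), lower in WT IP. The share of all genes at that block p was not counted. The inputs of Gstk1 were 9.005, 9.31 and 9.18 in KO, against 9.23, 9.10 and 9.10 in WT. Lower WT IP levels without overlap were found in 2 of 28 members, Sult5a1 and Ugt2b34, against 1.35% of all genes, and higher ones in 0 members, against 5.44%. Sult5a1 had 5.93, 5.99 and 5.80 in WT IP, against 6.87, 6.08 and 6.30 in KO IP (difference -0.51, adjusted p = 1). Ugt2b34 differed by -0.27 (adjusted p = 1). Ugt2b1 was at 0.80 and Ugt2a3 at -0.66, with an adjusted p of 1 for each, and Sult1b1 was at -0.37.

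**Figure D5:**
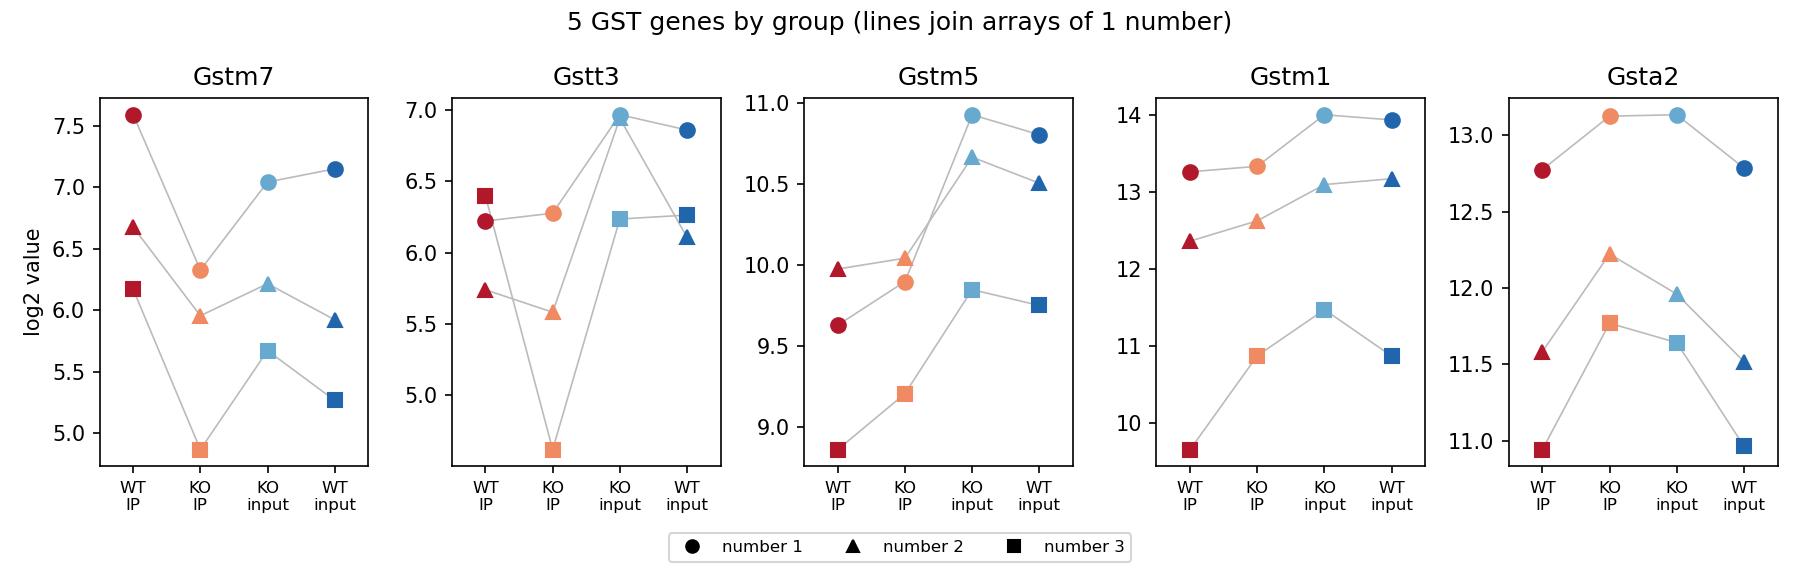
Log2 levels of Gstm7, Gstt3, Gstm5, Gstm1 and Gsta2 in WT IP, KO IP, KO input and WT input, with 1 point per array, a marker shape for each replicate number and lines joining arrays of the same number. Gstm7 lies higher in WT IP than in KO IP in each number, and Gstt3 lies lower in KO IP than in KO input in each number.

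The WT minus KO difference of IP minus input was called in 0 members, against 0.0105% of all genes, and with the preparation as a block also in 0, against 0.0211%. At an unadjusted p under 0.05 in the fit without the block there were 0 members, against 1.83% of all genes higher and 0.147% lower. In the block fit Gstm7 (0.00203) and Gstt3 (0.0285) were under that p, both above 0, and the share of all genes was not counted. The interaction had a median of 0.07 for UGT, -0.38 for SULT and -0.18 for GST genes, against 0.05 over all genes. It lay below 0 in 20 of 28 members, against 44.2% of all genes, and the WT IP minus KO IP difference did in 22 of 28, against 45.9%. Among tested members the largest value below 0 belonged to Sult1e1, -1.04 (adjusted p = 1). Gstt3 had 0.93 with a 95% interval of -0.37 to 2.22, and Ugt2a3 -0.72 with -3.03 to 1.59. These intervals come from the fit without the block. With the preparation as a block the SE of this difference was 0.35 for Gstt3 and 0.41 for Ugt2a3, against 0.59 and 1.06 without it.

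Between the inputs, which ask whether steady-state levels differ with the genotype, 0 of 28 members passed in either fit, against 0% of all genes. At an unadjusted p under 0.05 in the fit without the block there were also 0 members, against 0.0316% of all genes higher and 0.0211% lower. With the number as a block Gsta2 (0.0189, higher in KO) and Sult1e1 (0.0471, lower in KO) were under that p, and the share of all genes was not counted. The class medians were 0.03 for UGT, -0.06 for SULT and 0.10 for GST genes. Ugt2b34 was the only member whose inputs did not overlap, with 11.19, 11.23 and 11.40 in KO, against 10.80, 11.09 and 10.91 in WT (difference 0.34, adjusted p = 1), a separation found in 0.663% of all genes, and in 0.958% with KO lower. Gsta2 was 0.35, 0.44 and 0.68 higher in the KO input of each number (mean 0.49, 1.40-fold, adjusted p = 1), and Gsta4 0.12, 0.69 and 0.39 higher (mean 0.40, adjusted p = 1). Sult1e1 was lower in the KO input of each number, with differences of -0.57, -0.56 and -1.65 (mean -0.93, adjusted p = 1). Ugt2b1 differed by -0.38 and Sult1a1 by -0.09, with numbers of opposite sign.

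When inputs and IPs were both matched by number, KO lay above WT in all 6 pairs for 4 of 28 members (14.3%), against 3.44% of all genes. These were Gsta2, Gsta4, Gstm5 and Ugt2b34. WT lay above KO in all 6 pairs for 0 members, against 3.79% of all genes. This count was chosen after the values had been seen, and the input and IP of 1 preparation are not independent. For WT IP minus KO IP, Gsta2 was at -0.61 and Gsta4 at -0.61, with an adjusted p of 1 for each.

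The 11 members below the filter were Ugt2b37, Ugt2b38, Sult1c1, Sult1c2, Sult2a8, Sult2b1, Sult3a1, Sult4a1, Sult6b1, Gsto2 and Gstt4, and they have no p. Sult2a8, of a family that sulfonates bile acids and steroids, had the highest single arrays among them. Its levels were 4.52, 7.48 and 4.43 in WT IP, 3.501, 5.23 and 4.01 in KO IP, 4.82, 6.62 and 4.14 in KO inputs, and 4.05, 7.83 and 3.94 in WT inputs, highest in number 2 of each group. Ugt2b38 also peaked in number 2, with input means of 4.22, 6.25 and 3.71 in numbers 1, 2 and 3. Sult3a1 and Sult6b1 had input means of 2.94 to 3.15 in all 3 numbers.

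The genes that supply the donors and flank the reactions were read from lists, and 0 of their tested genes passed in the fit of all arrays in any comparison. With the preparation as a block, WT IP was lower than WT input in 4.61% of all genes. Among them were Pgm1 (-0.89, block adjusted p = 0.0386), an enzyme of glucose phosphate supply, and Gusb (-1.10, block adjusted p = 0.0437), which removes glucuronic acid, of 7 genes of UDP-glucuronic acid supply. Among 9 genes of PAPS supply and sulfate removal it called Bpnt1 (-1.50, block adjusted p = 0.0119), which degrades the spent donor, and Suox (-1.02, block adjusted p = 0.0478), sulfite oxidase. Single genes were called in 3 further lists. In glutathione supply it was Mat1a (-1.002, block adjusted p = 0.0305) of 14 genes, and in other conjugating enzymes As3mt (-1.16, block adjusted p = 0.0389) of 12. In the list named for microsomal glutathione transferases it was Mgst3 (-1.48, block adjusted p = 0.0271), of 3 tested genes, Mgst1, Mgst3 and Alox5ap. Of 13 xenobiotic sensors and NRF2 genes, Nqo1 (-1.51, block adjusted p = 0.0383) and Keap1 (block adjusted p = 0.0439) were called lower, and 0 genes of these lists were called higher. Of these calls only that of Bpnt1 remained without number 1 (block adjusted p = 0.0476), and without number 2 or 3 the block fit called 0 of all genes.

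In KO preparations the block fit called Gusb (-1.24, block adjusted p = 0.0377), Bpnt1 (-1.23, block adjusted p = 0.0244), Mat1a (block adjusted p = 0.04) and Hmox1 (-1.45, block adjusted p = 0.0155) lower in the IP, against 5.28% of all genes. Without any 1 of the numbers 0 of these calls remained. Gusb, Bpnt1 and Mat1a were thus called in both genotypes. Hmox1, the heme oxygenase induced by NRF2, was also the single listed gene called between the IPs, where 2.33% of all genes were called higher. Its WT IP minus KO IP difference was 1.23 (block adjusted p = 0.00348). Without number 1, 2 or 3 this p was 0.0391, 0.109 and 0.125. In WT the IP of Hmox1 was below the input as well, by -0.39, -0.35 and -0.41 without number 1, 2 or 3. Matched by number, KO lay above WT in 0 of 6 pairs of inputs and IPs. The WT minus KO difference of IP minus input was called in 0 genes of its list in either fit.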

How the data were processed

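The 12 arrays were deposited as log2 values by the authors, judged from their range, on a chip definition that has 1 probe set per gene. Per the labels' protocols, RNA was extracted with Trizol and RNeasy and 10 micrograms of total RNA were labelled as biotinylated cRNA. Their normalization was not given in the sources used here. Arrays have no sequencing depth, so their number sets the precision. Of 16539 probe sets, 64 were controls, 15780 carried 1 gene symbol from the platform annotation and 695 were unnamed here. Symbols of 15752 were matched to RefSeq (GRCm38.p6). Genes with a mean of at least 5.57, the 40th percentile of all probe sets, were tested, 9496 in all. The other value columns numbered 0.

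All 12 arrays entered 1 model of the 4 group means (8 residual degrees of freedom), fitted with limma 3.58.1 and statmod 1.5.0 under R 4.3.3. Tests were two-sided, p-values were adjusted by Benjamini-Hochberg over the 9496 genes, and a gene was called at an adjusted p under 0.05. SE is the moderated standard error. Scripts were tested on simulated data. Python 3.11.15 and matplotlib 3.10.9 drew the figures.

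The replicate numbers were checked for pairing. Deviations from the group means correlated across genes at 0.453 to 0.936 in the 18 pairs that share a number, and at -0.748 to 0.0685 where the number differed. Input levels correlated at 0.983 to 0.990 between genotypes where the number was shared, but within a genotype at 0.862 to 0.957 between numbers. The numbers therefore pair the samples. That an IP and its input share a preparation is from the series text; that a number is shared across genotypes is from the values. For IP against input and the interaction the block was the preparation (4 residual degrees of freedom). Between genotypes it was the number (6). Block values stand where they change a call.

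Members were described by name when they were called in any comparison or listed for their roles. The 2 tested members of each class with the largest difference in each comparison were described too. Not all are given in every array. Some have only the arrays of the comparison concerned, a range or a difference. A pair of the genes listed for their roles, Ugt1a1 and Gstp1, was not among the members found and is not analysed here. Gstm2, Gstm3, Gstm4, Gstp3, Sult2a8, Ugt2b38, Sult1c1, Sult3a1, Sult6b1, and the pathway genes Keap1 and Suox were named after their values were seen. The members and lists were chosen with earlier results of these data known. The test by number, the counts over 6 pairs, the motifs, and the fits without number 3 or without each number in the block were chosen after the data had been seen.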

Additional observations from a re-analysis of the deposited data

Results flagged for a closer look

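The IP minus input difference of Gstm7 had opposite signs in the genotypes in every preparation. It was 0.44, 0.75 and 0.90 in WT, against -0.72, -0.26 and -0.81 in KO. The difference between the genotypes was 1.29 on the log2 scale. It was tested as the interaction and did not pass, with an adjusted p of 1 in the limma fit of all arrays and 0.223 with the preparation as a block.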

How the results depend on the processing

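No member was called in any of the 5 comparisons when the arrays were quantile normalized or centred on their median, without the filter, with the 60th percentile as the filter, with only the arrays compared, or when any 1 array was left out. The replicate block called 2 members lower for WT IP minus input, 1 lower for KO IP minus input and 1 higher for WT IP minus KO IP, and 0 otherwise. With any number left out of the block fit the member counts were 0. Over all genes such fits also called 0 in both IP minus input comparisons without number 2 or 3, so these counts do not set the members apart. Without number 1 the fit of the same size called 84 genes higher and 145 lower in WT and 41 lower in KO, with 0 members. Between the IPs the fits without number 1, 2 and 3 called 146, 2 and 29 of all genes higher, with 0 members. The test by number called 13 members in the IPs but 3 without the filter and 10 to 14 under the other settings, and 23 in the inputs against 19 to 27. Quantile normalization moved the median of all genes in KO IP minus input to -0.04, against -0.21 as deposited. The members' median relative to all genes was then -0.04, against -0.03, and in WT -0.23, against -0.28. The members below 0 numbered 20 in WT and 17 in KO after quantile normalization, and 24 and 20 after centring. The UGT median in WT IP minus input was -0.061 after quantile normalization and -0.057 without the filter, and the GST median -0.31 after quantile normalization. In KO IP minus input the GST median was -0.16 after quantile normalization, against -0.38 as deposited. The SULT median in WT IP minus input reversed to 0.22 without the filter, which adds 7 dim genes. The SULT interaction reversed to 0.15 at the 60th percentile, which leaves fewer genes, and was -0.013 without number 3. Other SULT medians also turned: KO IP minus input to 0.17 without the filter (-0.50 without number 3), WT IP minus KO IP to 0.18 at the 60th percentile, and KO input minus WT input to 0.025 without number 3. The GST median between inputs was 0.028 without the filter, 0.028 at the 60th percentile and 0.06 without number 3.

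Leaving out 1 array leaves its number in 1 group and not in the other, so values that follow the number moved widely. The medians for UGT, SULT and GST ranged over -0.53 to 0.028, -0.85 to 0.081 and -0.93 to 0.052 in WT IP minus input, and over -0.27 to 0.09, -0.69 to 0.37 and -0.91 to -0.049 in KO IP minus input. They ranged over -0.25 to 0.43, -0.40 to 0.42 and -0.25 to 0.52 between inputs, and over -0.42 to 0.034, -0.40 to 0.21 and -0.47 to 0.087 between IPs. For the interaction the ranges were -0.45 to 0.14, -0.63 to 0.21 and -0.51 to 0.30. Named members that changed sign when an array was left out were Ugt3a2 (WT IP minus input -1.92 to 0.082, KO -2.01 to 0.17), Ugt2a3 (WT -1.16 to 0.11, between IPs -1.17 to 0.10, interaction -1.29 to 0.040), Sult1b1 (WT -1.09 to 0.10, between IPs -0.93 to 0.21), Gstm6 (WT -1.89 to 0.090), Sult1d1 (KO -1.28 to 0.12), Ugt2b1 (inputs -1.11 to 0.67, between IPs -0.51 to 1.94, interaction -0.89 to 1.56) and Sult1a1 (inputs -0.47 to 0.42). Over all genes, WT IP minus input had 10 higher calls, against 229 with the block and 1 with only the arrays compared, and 2 to 11 with an array left out. WT IP minus KO IP had 24 higher calls, against 221 with the block and 0 with only the arrays compared, and 4 to 16 with an array left out. KO IP minus input had 0 calls, against 69 higher and 501 lower with the block, and 35 higher and 17 lower without the filter.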
